A study of Mus musculus with 2 samples.

Results

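The genes described here drive the cell division cycle and the copying of DNA. There are 40 of them among the 43346 gene rows of the deposited tables, and they were taken by symbol from a list of textbook cell cycle genes. By role they fall into 5 cyclins and kinases of G1, 4 genes of the G1/S transition, 10 genes of S phase, 17 genes of G2 and mitosis, and 4 inhibitors of cyclin-dependent kinases. All 40 symbols matched a row in both pups. The tissue was the neural tube of newborn B6NCrl mice at age 0 days, 1 tube from each of 2 pups of 1 litter, with the sex not collected. The labels list no treatment, so the pups form a single group (n = 2), and nothing was compared between conditions. Total RNA longer than 200 bases was sequenced. Values are means ± SD over the pups, and no p-value was computed.

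A dividing cell enters the cycle when D-type cyclins with Cdk4 or Cdk6, and then E-type cyclins with Cdk2, phosphorylate the RB family of proteins. This frees E2F transcription factors, which switch on genes for DNA replication. Cyclin B with Cdk1 later drives mitosis, and inhibitors of the Cip/Kip and INK4 families hold the kinases back. In the developing spinal cord, divisions take place in progenitors, and neurons leave the cycle for good. Because the tissue was sequenced in bulk, fewer dividing cells and less RNA per dividing cell cannot be told apart in any level below.

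The pups gave 26916916 and 40003518 expected counts on gene rows. Markers of neurons and of progenitors were detected for 6 of 6 genes each, where detected means at least 1 TPM in both pups. TPM is a level divided by transcript length and scaled to a fixed total per library. Of 6 Hox genes of the trunk, 6 were detected, 3 of them higher and 3 lower in pup 2. Hoxc8 was at 22.8 TPM in pup 1 and 52.0 TPM in pup 2, and Hoxd10 at 105 and 63.2 TPM. Of 6 genes of forebrain and midbrain, 0 were detected, with Otx1 and Otx2 at 0 counts in both pups, where 3 counts would be 0.111 CPM (counts scaled to a fixed library total) in pup 1 and 0.0750 CPM in pup 2. Intervals of TPM are the bounds in the deposited tables, and they cover counting and read assignment only.

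Most promoters of the mitotic genes held a CHR motif, some of those of the replication genes held an E2F site, and most of both held a CCAAT box. RefSeq promoter windows of 300 bases on GRCm38.p6, with 250 bases before and 50 after the start site, were at hand for 33 of the 40 genes. Ccnd1, Ccnd2, Ccne2, Mcm4, Ccna2, Aurkb and Tpx2 had none. The motifs searched on both strands were the CHR (TTTGAA or TTCGAA), an element bound by the MuvB complex in genes of G2 and mitosis, the CCAAT box (CCAAT), which binds NF-Y, and the E2F site (TTTGGCGC, TTTCCCGC, TTTCGCGC or TTTGCCGC). The sequences below were picked after the search, 4 mitotic genes for their CHR and CCAAT matches and 2 replication genes for their E2F matches, with an upstream window of Cdkn1a that held none. Capitals mark matches on either strand, and each stretch runs 5′ to 3′ toward the start site, without bases that GENCODE annotates as exon. Overlapping E2F matches share bases in Mcm6.
Cdk1: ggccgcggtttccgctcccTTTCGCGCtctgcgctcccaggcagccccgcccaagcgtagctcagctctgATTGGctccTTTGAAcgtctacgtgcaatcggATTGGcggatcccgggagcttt
Top2a: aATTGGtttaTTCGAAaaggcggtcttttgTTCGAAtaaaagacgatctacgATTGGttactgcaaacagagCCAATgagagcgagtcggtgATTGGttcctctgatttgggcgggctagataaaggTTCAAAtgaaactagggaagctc
Cdc20: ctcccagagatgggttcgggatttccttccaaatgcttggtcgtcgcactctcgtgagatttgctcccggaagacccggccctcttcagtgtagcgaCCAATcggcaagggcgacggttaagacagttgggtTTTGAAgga
Mki67: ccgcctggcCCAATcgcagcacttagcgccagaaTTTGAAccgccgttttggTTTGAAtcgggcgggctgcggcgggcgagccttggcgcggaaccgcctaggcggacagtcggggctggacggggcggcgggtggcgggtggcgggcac
Mcm6: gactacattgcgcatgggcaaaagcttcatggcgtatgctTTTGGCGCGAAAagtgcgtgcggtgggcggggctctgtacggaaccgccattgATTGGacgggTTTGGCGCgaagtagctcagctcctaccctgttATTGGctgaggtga
Mcm5: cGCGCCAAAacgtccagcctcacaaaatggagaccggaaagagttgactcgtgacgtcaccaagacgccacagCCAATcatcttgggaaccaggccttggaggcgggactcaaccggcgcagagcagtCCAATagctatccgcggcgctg
Cdkn1a: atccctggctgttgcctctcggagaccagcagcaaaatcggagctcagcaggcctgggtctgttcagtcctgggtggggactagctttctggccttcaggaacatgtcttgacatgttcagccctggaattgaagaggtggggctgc
On GRCm38.p6 these lie at chr10:69352939-69353062 (minus strand) for Cdk1, chr11:99024190-99024339 (minus) for Top2a, chr4:118437353-118437493 (minus) for Cdc20, chr7:135716380-135716529 (minus) for Mki67, chr1:128359706-128359855 (minus) for Mcm6, chr8:75109359-75109508 (plus) for Mcm5, and chr17:29090829-29090975 (plus) for Cdkn1a.

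Among the 14 G2 and mitotic genes with a window, 12 held a CHR and a CCAAT box together, which is 85.7%, against 9.65% of all 27025 promoters in the table. A CHR alone was found in 21.7% of all promoters. The mitotic genes without a CHR were Ccnb1, which held a CCAAT box, and Birc5, which held none of the 3 motifs. In 5 of the 12 genes (Aurka, Bub1, Plk1, Cenpa and Cenpf) the CHR lay past the start site or across it, and with the 250 bases before the start site alone the count of genes with a CHR and a CCAAT box was 7 of 14, against 7.93% of all promoters. In Cdk1 CCAAT boxes began 80 and 48 bases, and CHRs 71 and 15 bases, before the start site. In Cdc20 CCAAT boxes began 53 and 8 bases, and a CHR 18 bases, before it. The CHR at 15 bases in Cdk1 and the CCAAT box at 8 bases in Cdc20 lie in exon bases left out of the stretches shown.

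The S-phase genes held E2F sites in 4 of 9 windows (Mcm3, Mcm5, Mcm6 and Mcm7), which is 44.4%, against 2.61% of all promoters. With the bases before the start site alone Mcm3 dropped out, and the count was 3 of 9, against 2.16% of all promoters. Mcm6, a subunit of the replicative helicase, held overlapping E2F matches that began 110 and 106 bases before the start site and a further one at 47 bases. A CCAAT box was found in 8 of the 9, all but Tyms, and a CHR in 2 of the 9, Mcm2 and Mcm7, against 41.1% and 21.7% of all promoters. Of the other genes, Cdk1 and Cdk2 held an E2F site. None of the 4 inhibitors held a CHR or an E2F site, and Cdkn1b, Cdkn2c and Cdkn2d held a CCAAT box. In Cdkn2c the box lay past the start site or across it. All 150 bases before the start site are annotated as exon in Cdkn2d, in E2f1, and in 1 of 2 windows each of Cdkn1a and Cdkn2c. A lack of matches there thus describes exon bases in large part. A match describes letters in a window and does not show that a factor binds there.

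**Figure D1:**
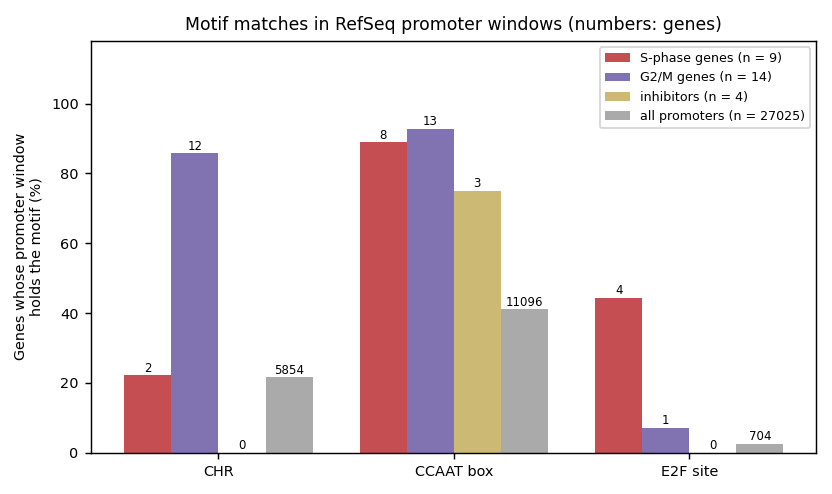
Share of genes whose RefSeq promoter window holds each motif (percent, vertical axis) for S-phase genes, G2 and mitotic genes, inhibitors and all promoters, with the number of genes above each bar. The CHR stands at 85.7% in the G2 and mitotic genes and the E2F site at 44.4% in the S-phase genes, against 21.7% and 2.61% of all promoters.

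All 40 genes were detected in both pups, as were 13698 of 21474 protein-coding rows, 63.8%. The levels were moderate for most: the median over the 40 genes was 14.96 TPM in pup 1 and 13.6 TPM in pup 2, and 15 of them lay above 17.7 TPM, the median of all detected protein-coding genes. Of the 10 S-phase genes 6 lay above that median, and of the 17 G2 and mitotic genes 3 did. The 6 include Tyms, whose mean of 17.755 TPM barely passed the median of 17.735 TPM and whose pup 1 value, 17.4 TPM, did not. On protein-coding transcripts alone Tyms (1.55 TPM), Cdk1 (17.4 TPM), Cenpa (9.11 TPM) and Ccnd1 (14.7 TPM) fell under that median. The median itself is over all transcripts. Expected counts per gene and pup ran from 125 to 6457, so the lowest value still rests on 125 estimated reads. In order of mean TPM, 29 of the 39 neighbouring pairs had overlapping intervals in both pups, so their order is not settled by these values.

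**Figure D2:**
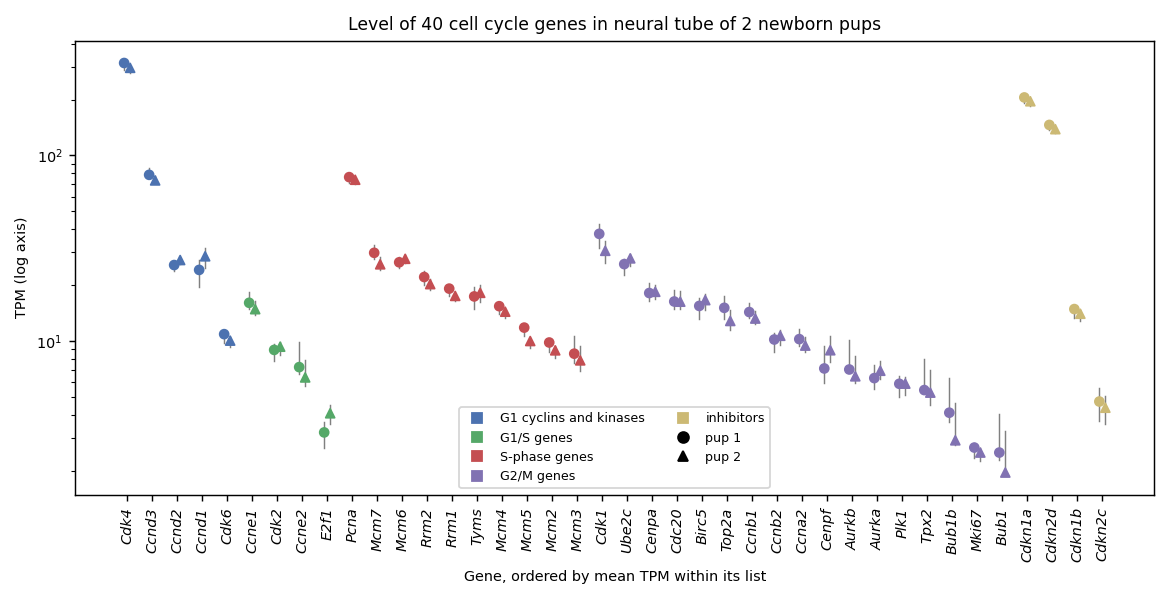
TPM of each of the 40 genes in pup 1 (circles) and pup 2 (triangles) on a log axis, coloured by list, with the deposited TPM intervals as grey lines; the intervals belong to the posterior mean, so a point can lie near their edge. Cdk4, Cdkn1a and Cdkn2d stand above 138 TPM in both pups, and Bub1 and Mki67 below 3 TPM.

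Among the G1 genes, 1 kinase and 1 cyclin stood out. Cdk4, the kinase partner of D-type cyclins, was at 315 TPM in pup 1 and 296 TPM in pup 2 (mean 305 ± 13.1), higher than 96.7% of detected protein-coding genes. Its relative Cdk6 was at 10.9 and 10.0 TPM. Cdk4 was thus 29.2 ± 0.412 times as high as Cdk6 in TPM over all transcripts, but 8.89 ± 0.574 times over protein-coding transcripts alone and 6.64 ± 0.0265 times in expected counts. Cdk4, at chr10:127063534-127067920 on GRCm38, shares 19.7% of its exon bases with Tspan31 on the opposite strand, and the strand setting of the counting is not given in the sources used here.

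The 3 D-type cyclins, which bind Cdk4 and Cdk6, were not at equal levels. Ccnd3 was highest, at 78.5 TPM in pup 1 and 73.2 TPM in pup 2, followed by Ccnd2 at 25.6 and 27.3 TPM and Ccnd1 at 24.1 and 28.6 TPM. Ccnd3 was 2.87 ± 0.267 times Ccnd2 and 2.91 ± 0.487 times Ccnd1, the latter 5.13 ± 0.841 times on protein-coding transcripts. Ccnd1 and Ccnd2 changed places between the pups, so their order is not settled over all transcripts. On protein-coding transcripts alone Ccnd1 was below Ccnd2 in both pups, with Ccnd2 at 1.81 ± 0.131 times Ccnd1. A retained-intron transcript of 470 bases held 44.2% and 44.5% of Ccnd1 TPM. Of the exon bases of Ccnd1, 23.4% overlap LTO1 on the opposite strand.

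The G1/S genes were lower. Ccne1, an E-type cyclin, was at 16.0 and 14.8 TPM, and Ccne2 at 7.22 and 6.35 TPM, a ratio of 2.28 ± 0.0794. Cdk2, their kinase partner, was at 8.94 and 9.30 TPM. E2f1, an activating E2F transcription factor, was at 3.21 TPM in pup 1 and 4.07 TPM in pup 2, the lowest of these 4 genes in both pups. Of the exon bases of Ccne2, 17.4% overlap Ints8 on the opposite strand.

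In S phase the sliding clamp Pcna, which holds DNA polymerases on the template, was highest at 76.3 TPM in pup 1 and 73.9 TPM in pup 2, above 83.7% of detected protein-coding genes. The 6 subunits of the Mcm2 to Mcm7 helicase, which unwinds DNA as a ring with 1 copy of each, were present at unequal RNA levels. Mcm7 (29.8 and 25.9 TPM) and Mcm6 (26.5 and 27.7 TPM) were the highest pair, and Mcm4 was at 15.4 and 14.4 TPM. Mcm5 was at 11.8 and 9.98 TPM, Mcm2 at 9.80 and 8.89 TPM, and Mcm3 at 8.53 and 7.85 TPM. The highest subunit was 3.51 ± 0.0214 times the lowest, and Mcm3 was the lowest in both pups while the highest was Mcm7 in pup 1 and Mcm6 in pup 2.

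Over all transcripts, the members for the supply of deoxynucleotides, Rrm2, Rrm1 and Tyms, were close to each other. Rrm2 and Rrm1, the small and large subunits of ribonucleotide reductase, were at 22.1 and 20.2 TPM and at 19.1 and 17.5 TPM, a ratio of 1.16 ± 0.00190. Tyms, thymidylate synthase, was at 17.4 and 18.2 TPM, though most of this was assigned to transcripts not annotated as protein-coding. On protein-coding transcripts alone Tyms was at 1.55 ± 0.552 TPM, far below Rrm2 at 19.9 ± 0.735 TPM and Rrm1 at 18.3 ± 1.17 TPM.

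The G2 and mitotic genes ranged from 2.23 ± 0.389 TPM for Bub1, a spindle checkpoint kinase, to 34.2 ± 5.07 TPM for Cdk1, the mitotic kinase. On protein-coding transcripts alone Ube2c was the highest of this list, at 26.9 ± 1.35 TPM, and Cdk1 was at 17.4 ± 0.559 TPM. Cdk1 was at 37.8 TPM in pup 1 and 30.6 TPM in pup 2. Next came Ube2c (25.9 and 27.8 TPM), the ubiquitin-conjugating enzyme of the anaphase-promoting complex, Cenpa (18.1 and 18.4 TPM), the histone of the centromere, and Cdc20 (16.3 and 16.3 TPM), which activates that complex in mitosis. Birc5, or survivin, was at 15.4 and 16.6 TPM and Top2a, the topoisomerase that untangles sister chromatids, at 15.1 and 12.8 TPM. Of the exon bases of Ube2c, 22.8% overlap Tnnc2 on the opposite strand.

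The mitotic cyclins lay in the middle of the list. Ccnb1 was at 14.3 and 13.2 TPM, Ccnb2 at 10.2 and 10.7 TPM, and Ccna2, the cyclin of S phase and G2, at 10.2 and 9.43 TPM. Ccnb1 was 1.32 ± 0.119 times Ccnb2. Of the exon bases of Ccna2, 12.5% overlap Exosc9 on the opposite strand.

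Kinases and checkpoint genes of mitosis made up most of the low end. Aurka and Aurkb, kinases of the spindle pole and of the centromere, were at 6.30 and 6.90 TPM and at 7.01 and 6.44 TPM, so their order reversed between the pups. Plk1, a kinase with many roles in mitosis, was at 5.87 and 5.88 TPM, and Tpx2, which activates Aurora A on spindle microtubules, at 5.43 and 5.26 TPM. Cenpf, a kinetochore protein, was at 7.10 and 8.90 TPM. Bub1b was at 4.10 and 2.91 TPM, and Bub1 at 2.50 and 1.95 TPM.

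Mki67, which encodes the proliferation antigen Ki-67, was at 2.66 TPM in pup 1 and 2.50 TPM in pup 2, higher than only 9.28% of detected protein-coding genes. Its expected counts, 458 and 663, were close to those of Cdk1, 458 and 680. Cdk1 was therefore 13.2 ± 1.39 times Mki67 in TPM and 1.01 ± 0.0181 times in counts, so the place of Mki67 in the order differs between these scales.

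Taken as lists, the S-phase genes were higher than the G2 and mitotic genes. Their median was 18.2 TPM in pup 1 and 17.8 TPM in pup 2, against 10.2 and 9.43 TPM for the G2 and mitotic genes, a ratio of 1.79 and 1.89 (1.84 ± 0.0669). In 131 of the 170 pairs of 1 S-phase and 1 mitotic gene, the S-phase gene had the higher mean. The lists overlapped widely, and 8 of 10 S-phase genes and 8 of 17 mitotic genes had a mean of at least 10 TPM. The ratio was 1.15 on summed TPM, which sets 10 S-phase genes against 17 mitotic genes and so depends on list size. It was 2.48 ± 0.157 for the medians on protein-coding transcripts.

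**Figure D3:**
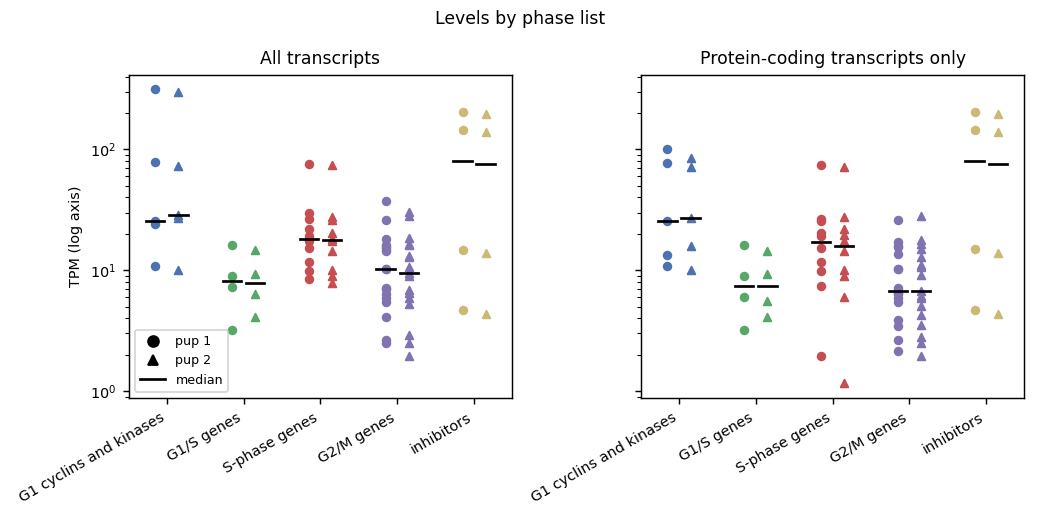
TPM of the genes in each list (log axis) in pup 1 (circles) and pup 2 (triangles), over all transcripts on the left and over protein-coding transcripts on the right, with black lines at the medians. The S-phase median lies above the G2 and mitotic median in both pups and both panels, by 1.84 times on the left and 2.48 times on the right.

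The 4 inhibitors split into a high pair and a low pair. Cdkn1a, which encodes p21, was at 205 TPM in pup 1 and 196 TPM in pup 2, and Cdkn2d, which encodes the INK4 inhibitor p19, at 146 and 138 TPM. Among detected protein-coding genes, Cdkn1a ranked at percentile 94.4 and Cdkn2d at percentile 92.0. Cdkn1b, which encodes p27, was at 14.8 and 14.0 TPM and Cdkn2c, which encodes p18, at 4.71 and 4.36 TPM. The high pair made up 94.8% of the summed inhibitor level of 362 ± 12.9 TPM and 88.4% of the summed counts.

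Within each inhibitor family the gap was wide. Cdkn1a was 13.9 ± 0.106 times Cdkn1b, and Cdkn2d was 31.4 ± 0.539 times Cdkn2c. No TPM of an inhibitor was assigned to a transcript other than a protein-coding one. On protein-coding transcripts alone Cdkn1a, at 200.5 TPM, was the highest of all 40 genes, ahead of Cdkn2d, while Cdk4 came to 93.1 ± 11.3 TPM.

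How the reads of a gene were divided among its transcripts changed several of these levels. For 26 of the 40 genes at least 90% of TPM lay on protein-coding transcripts in both pups, and the median share over the 40 was 98.4%, against 98.7% for detected protein-coding genes. The share was under 50% in both pups for 3 genes, Cdk4, Tyms and Top2a, which is 7.5% of the members against 7.68% of detected protein-coding genes.

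Cdk4 had 32.1% and 28.7% of its TPM on protein-coding transcripts. Its leading transcript in both pups was Cdk4-209, a retained-intron transcript of 468 bases, with 38.3% and 39.0% of the gene's TPM but 16.98% and 17.54% of its counts. The protein-coding Cdk4-201, of 2053 bases, held 12.7% and 13.2% of TPM and 29.8% and 31.4% of counts. A short transcript thus weighed more in TPM than in counts.

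Tyms had 11.2% and 6.39% of its TPM on its protein-coding transcript. Tyms-205, annotated as subject to nonsense-mediated decay, led in both pups with 44.2% and 36.8%, and 2 retained-intron transcripts held most of the rest. On protein-coding transcripts Tyms was at 1.94 TPM in pup 1 and 1.16 TPM in pup 2, and moved from rank 15 to rank 40 among the 40 genes. By counts its protein-coding share was 25.3% and 16.6%, also the lowest among the genes whose transcripts are described here.

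Top2a had 44.3% and 47.5% of TPM on protein-coding transcripts but 85.8% and 86.5% of its counts, since its leading transcript Top2a-201 is 5221 bases long and the others that hold most of its remaining TPM are short. Cdk1 behaved alike, with 45.0% and 58.2% of TPM and 74.7% and 83.3% of counts on protein-coding transcripts. The retained-intron transcripts Cdk1-203 and Cdk1-204 held 29.7% and 25.3% of TPM in pup 1 and 20.7% and 19.5% in pup 2. Cdk1 TPM was lower in pup 2, while its scaled counts had a log2 ratio of 0.02.

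The leading transcript was the same in both pups for 29 of the 31 genes with several transcripts. Among those with a mean of at least 5 TPM it was the same for 25 of 27 members, 92.6%, and for 91.8% of 8481 genes. It differed for Cdk2, where Cdk2-202 held 55.1% in pup 1 and Cdk2-201 held 55.7% in pup 2, both protein-coding and of similar length. It also differed for Cenpa, where Cenpa-202, annotated as subject to nonsense-mediated decay, led pup 1 with 41.1% and the protein-coding Cenpa-205 led pup 2 with 59.5%. In Cenpf the leading transcript, Cenpf-201, carried the same annotation and was 609 bases long, with 36.6% and 53.3% of TPM but 5.61% and 11.2% of counts. Cdk4, Tyms and Cenpf were the 3 of 31 genes whose leading transcript was not protein-coding in either pup. All 3 are among the 27 at 5 TPM or more, which is 11.1%, beside 8.99% of 8240 protein-coding genes at that level.

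**Figure D4:**
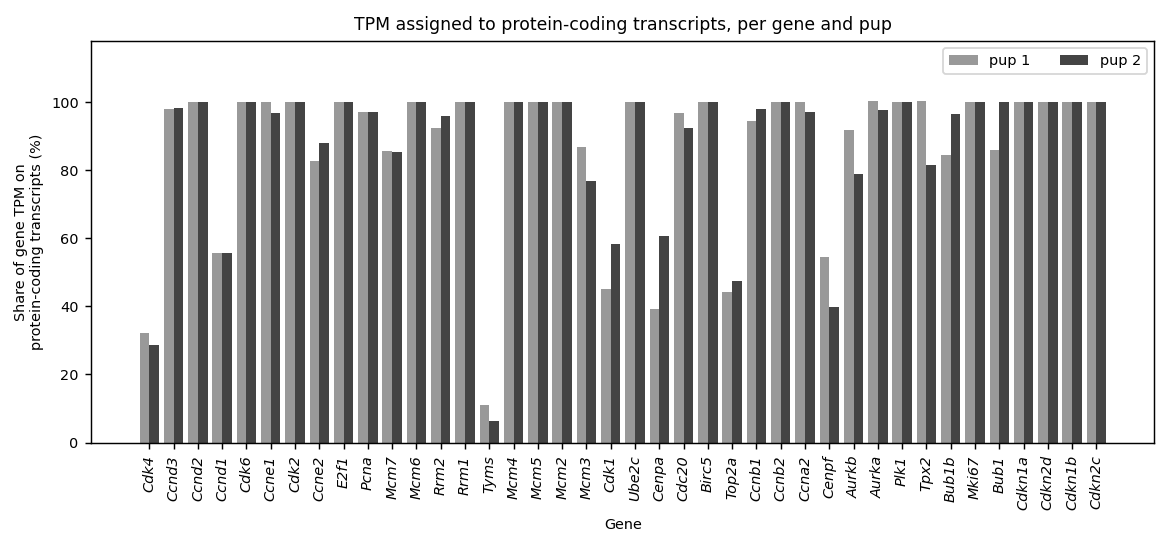
Share of each gene's TPM on protein-coding transcripts (percent, vertical axis) in pup 1 (light bars) and pup 2 (dark bars), in the order of the plot of levels. Most genes stand near 100%, and Tyms is lowest at 11.2% and 6.39%.

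The members differed little between the pups. Differences are log2 ratios of scaled counts, pup 2 to pup 1, with 1 library on each side and so without a replicate check. None of the 40 passed 2-fold, against 0.472% of the 13545 genes whose mean count was 100 or more (0.413% higher and 0.0591% lower in pup 2). With a share that low, 0 of 40 does not set the members apart from other genes. Their median log2 ratio was -0.03 against 0.00 for all genes tested, and the median size of the ratio was 0.0732 against 0.111. Of the members 15 were higher and 25 lower in pup 2, while all genes divided 50.3% to 49.7%.

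E2f1 had the largest ratio, with expected counts of 146 in pup 1 and 285 in pup 2 and a log2 ratio of 0.41. Ccnd1 was next at 0.31, followed by Aurka and Birc5 at 0.17 each. At the other end Bub1b and Tpx2 were at -0.26 each, Aurkb at -0.23 and Mcm3 at -0.18. Of the 10 S-phase genes 8 were lower in pup 2, and of the 17 mitotic genes 9 were.

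Intervals of TPM were apart between the pups for 2 of the 40 genes, Ccnd2 and Mcm5, against 23.6% of genes with the same minimum count. Those genes were not matched to the members on count, so the shares cannot be compared directly. The TPM and the count ratio had opposite signs for 6 of the 40 genes. In Cenpf, for example, TPM was 7.10 in pup 1 and 8.90 in pup 2 while the log2 ratio of counts was -0.06. Summed over the S-phase genes, TPM in pup 2 was 0.948 times that in pup 1. The summed progenitor markers, with 6 of 6 detected, were at 2724 and 2592 TPM, a ratio of 0.951. The highest of these markers had a mean of 2194 TPM, out of a mean sum of 2658 TPM. In scaled counts 2 of the 6 were higher and 4 lower in pup 2. Markers of oligodendrocyte precursors, with 6 of 6 detected, summed to 241 and 261 TPM, and 5 of the 6 were higher in pup 2. Markers of myelinating oligodendrocytes, with 5 of 6 detected, summed to 387 and 698 TPM. All 6 of them were higher in pup 2, with 3 genes past 2-fold. Those of erythroid cells, with 3 of 6 detected, summed to 1668 and 1290 TPM, and all 6 were lower in pup 2. All 6 markers were higher in pup 2 in 3 further lists: sensory ganglion neurons (2 of 6 detected, sums of 160 and 234 TPM, 3 genes past 2-fold), leukocytes (3 of 6 detected, 52.7 and 91.0 TPM) and meningeal fibroblasts (6 of 6 detected, 426 and 534 TPM). The part of these cell types in the differences was not tested.

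**Figure D5:**
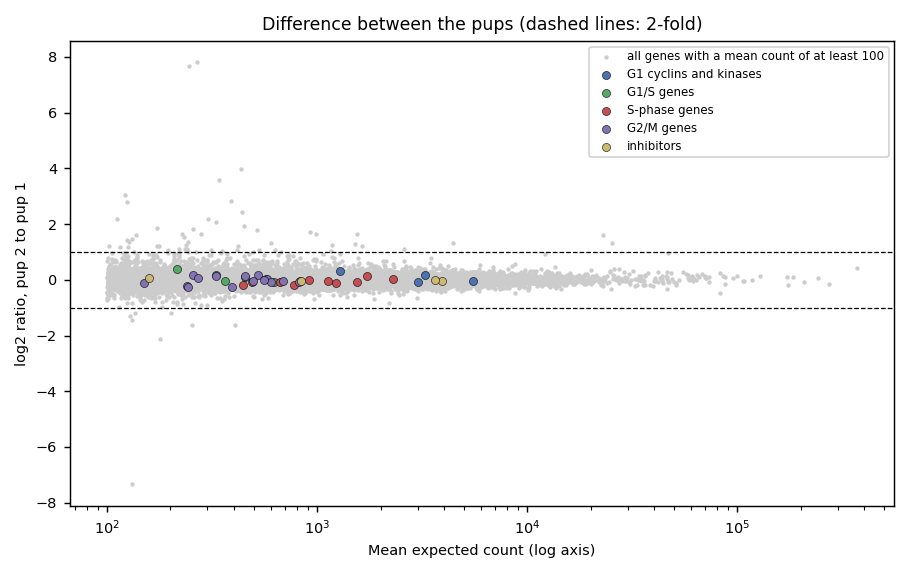
Log2 ratio of scaled counts, pup 2 to pup 1, against the mean expected count (log axis) for the 13545 genes whose mean count was 100 or more (grey) and for the 40 members (coloured by list), with dashed lines at 2-fold. All members lie between the dashed lines, from -0.26 to 0.41.

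Beyond the members, 110 further genes in 10 lists of the same pathways were looked up, and 105 were detected in both pups. None of the 100 with a mean count of 100 or more passed 2-fold between the pups. Levels and orders in these lists are over all transcripts unless stated, and orders are by mean TPM over the pups. In origin licensing, 17 of 17 were detected, from Orc4 (55.3 and 53 TPM), Orc3 (45.7 and 44.6 TPM) and Orc6 (43.7 and 42.7 TPM) down to Orc1 (1.07 and 1.13 TPM), all subunits of the origin recognition complex that marks where the Mcm ring is loaded. The spread among these subunits was wider than among the Mcm genes. On protein-coding transcripts alone Orc6 was the highest of the list, at a mean of 43.2 TPM, and Orc4 was at 22.5 TPM.

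At the replication fork, 21 of 21 genes were detected. The clamp loader subunits Rfc2 (69.2 and 64.1 TPM) and Rfc3 (40.6 and 36.9 TPM), which place Pcna on DNA, and the polymerase delta subunit Pold2 (49.0 and 42.1 TPM) were highest by mean. In pup 2 Rpa3 (42.8 TPM) was above Rfc3 and Pold2. Pola1, the catalytic subunit of the priming polymerase, was lowest at 2.18 and 2.14 TPM. Of 6 genes of nucleotide supply all were detected, led by Dut (56.8 and 54.1 TPM), Dck (21.4 and 19.8 TPM) and Rrm2b (9.43 and 12.6 TPM). In pup 1 Tk1 (10.0 TPM) was above Rrm2b.

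Of the 18 E2F, RB and MuvB regulators, 16 were detected in both pups. Tfdp1, the dimer partner of E2F proteins, was at 57.5 and 56.7 TPM, Lin37, a subunit of MuvB, at 46.3 and 42.9 TPM, and E2f4, an E2F that acts largely as a repressor, at 24.8 and 22.4 TPM. E2f4 was thus well above E2f1 in both pups. E2f2 (2.21 and 0.81 TPM) and E2f8 (1.02 and 0.84 TPM) reached 1 TPM in pup 1 alone. On protein-coding transcripts, however, E2f2 was at 0.83 and 0.81 TPM. Its expected counts were 74 and 100, with a log2 ratio of scaled counts of -0.12.

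In mitosis, 18 of 19 spindle and kinetochore genes were detected, led by Bub3 (87.8 and 85.3 TPM), Prc1 (14.0 and 12.9 TPM) and Spc25 (14.7 and 12.1 TPM). In pup 2 Mad2l1 (12.3 TPM) was above Spc25. Bub3, the checkpoint partner of Bub1 and Bub1b, was thus far above both. Aspm, a spindle pole protein, was lowest at 0.97 and 1.06 TPM. In the condensin and separase list 6 of 7 were detected, with Pttg1, or securin, at 57.6 and 73.6 TPM, Smc2 at 26.3 and 27.9 TPM and Smc4 at 18.9 and 17.6 TPM, while Espl1, or separase, stayed at 0.74 and 0.78 TPM. On protein-coding transcripts alone Smc2, at a mean of 6.34 TPM, was below Smc4, at 12.9 TPM.

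All 10 genes of mitotic entry and protein degradation were detected, from Fzr1 (115 and 110 TPM), Cks1b (53.8 and 54.6 TPM) and Cks2 (21.6 and 20.3 TPM) down to Cdc25c (2.83 and 2.39 TPM). Fzr1, or Cdh1, activates the anaphase-promoting complex in G1 and in cells that have left the cycle, whereas Cdc20 does so in mitosis. Fzr1 was 6.92 ± 0.236 times as high as Cdc20. Of 3 further inhibitors, Cdkn1c, which encodes p57, was at 86.0 TPM in pup 1 and 109 TPM in pup 2, Cdkn2b at 2.11 and 2.91 TPM, and Cdkn2a at 0 counts in both pups.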

How the data were processed

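Total RNA-seq libraries of 2 pups were analysed as 1 group; p-values were not computed. Per the file headers, the deposited gene and transcript tables hold expected counts (estimated reads, not whole), TPM, FPKM and the percent of a gene's TPM on each transcript. The columns are those RSEM writes. Deposited notes name mm10 and GENCODE M4; no aligner or strand setting is given in the sources used here. Reads shared between genes were divided by the authors' estimation. Of the 40 members, 29 had a posterior SD of the count of 0 in both pups, and in the other 11 it was at most 1.49% of the count.

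Symbols, transcript types and coordinates came from GENCODE M21 (GRCm38); Sgol1 was matched as Sgo1 by a RefSeq synonym. Promoters came from RefSeq (GRCm38.p6). In 24 of 33 members, the 30 bases after the start site occur in a GENCODE transcript. Expected counts were rounded, scaled with edgeR 4.0.16 (TMM) in R 4.3.3, and log2 ratios used a prior count of 2 (self-tested on simulated data). The common coefficient of variation between pups was 0.0955 over 18105 genes. DESeq2 1.42.0 gave alternative size factors. Other steps used Python 3.11.15, pandas 2.3.3, numpy 2.4.6 and matplotlib 3.10.9. Transcript comparisons over all genes used a mean of at least 5 TPM. Spike-in rows held 335 and 603 counts and were left out of library totals.

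Named genes were all members; of each pathway list the 3 highest, the lowest, any at 1 TPM or more in exactly 1 pup and any past 2-fold; marker genes at 0 counts; and members whose leading transcript differed or was not protein-coding. A gene that this rule takes is not reported here. Outside this rule, Rpa3, Tk1, Mad2l1, Gadd45a, Hoxc8 and Hoxd10 were named after values were seen. Members and lists were chosen with earlier results of these data known. Sequences shown, and ratios between genes, were chosen after values were seen.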

Additional observations from a re-analysis of the deposited data

How the results depend on the processing

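The members past 2-fold between the pups stayed at 0 with DESeq2 size factors, library totals, spike-in totals, another prior count, TPM ratios and other count minimums. Spike-in totals shifted every log2 ratio by -0.29, which put the members' median at -0.32. The ratio of S-phase to mitotic medians was 1.84, and the ratio stayed above 1 in every setting run. It was 1.15 on summed TPM, which sets 10 S-phase genes against 17 mitotic genes. It was 2.26 on expected counts, 2.23 with the pathway lists added and 2.48 on protein-coding transcripts. With either pup alone it was 1.79 to 1.89. The median member level, 14.3 TPM, was 9.31 as FPKM and 11.1 TPM on protein-coding transcripts, with 13.6 to 14.96 for either pup alone. The summed inhibitor level was 352 to 371 TPM with either pup alone, and 40 to 40 members were detected. A CHR before the start site alone was found in 7 mitotic genes, against 12, and an E2F site there in 3 S-phase genes, against 4. The protein-coding and upstream settings were chosen after seeing the data. Apart from settings that count other transcripts, bases or genes, the cause was not tested. No paired analysis was possible because there is 1 group. Depth limits the low genes: Bub1 rests on 127 and 172 expected counts.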

Other observations

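Cdk5, a kinase of postmitotic neurons that needs the activators p35 and p39 rather than a cyclin, was at 103 TPM in pup 1 and 96.7 TPM in pup 2. Cdk5r1, which encodes p35, was at 57.1 and 55.9 TPM, and Cdk5r2, which encodes p39, at 17.1 and 22.9 TPM. Of the 6 genes of the p53 pathway all were detected, with Trp53 at 27.9 and 25.6 TPM, Mdm2, its ubiquitin ligase, at 27.1 and 25.6 TPM, and Ccng1 at 26.0 and 26.4 TPM. Btg2 was lowest by mean, at 14.8 and 12.4 TPM, though Gadd45a (14.7 TPM) was below it in pup 1. Cdkn1a, a target of p53, was higher than each of these 6 in both pups.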
